A study of Homo sapiens with 8 samples.

Results

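HOX genes encode homeodomain transcription factors and lie in 4 clusters on separate chromosomes, named A, B, C and D. Within a cluster they are numbered by position, and the low-numbered (anterior) genes are active nearer the head of the embryo while the high-numbered (posterior) genes are active nearer the tail. The pattern is held in adult cells by Polycomb proteins, which keep clusters silent, and by Trithorax proteins, which keep them active. The prostate forms from the hindgut end of the embryo, and HOXB13, the most posterior gene of cluster B, is known as a regulator of prostate development.

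The HOX genes described here are the genes whose symbol names cluster A, B, C or D and a position and which have at least 1 probe set annotated with that symbol alone. There were 28 such genes of 19775 genes on the array, with 44 probe sets. Cluster A was represented by 1 gene (HOXA2), cluster B by 10, cluster C by 9 and cluster D by 8. The human gene table lists 39 HOX genes (11 in A, 10 in B, 9 in C and 9 in D), and the other cluster A genes and HOXD3 were not analysed here. Each gene is given by its brightest probe set, averaged over the 8 arrays, and 13 genes had more than 1 to choose from.

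Transcripts were measured on Affymetrix oligonucleotide arrays, 1 array per sample, in lines of the PC3 human prostate cancer cell line. PC3-Epi (1 array, no shRNA) is a luciferase-expressing subpopulation of PC3 with an epithelial phenotype. The group EMT (1 array per line, no shRNA) comprised PC3-EMT1, PC3-EMT12 and also PC3-EMT14, which are mesenchymal subpopulations isolated from PC3-Epi after co-culture with macrophages. PC3-EMT1 and PC3-EMT14 also received a lentivirus with a scrambled shRNA (Scr, 1 array per line, mesenchymal) or with an shRNA against ZEB1 (sh4, 1 array per line, epithelial), ZEB1 being a repressor of epithelial genes. All lines therefore descend from a single parental population. In EMT against PC3-Epi and in sh4 against Scr the lines are the replicates. A p-value there reflects no more than the spread among the lines, part of which may be technical. Values of the EMT lines are listed throughout in the order PC3-EMT1, then PC3-EMT12, then PC3-EMT14.

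Values are log2 expression from the RMA method, and a difference of 1 is 2-fold. The 4 untransduced and the 4 transduced arrays are on separate scales (medians of all probe sets 4.33 to 4.35 and 6.19 to 6.23), so HOX values were compared within a set only. ZEB1, the targeted gene, was at 9.87 and 10.08 on the Scr arrays of PC3-EMT1 and PC3-EMT14 and at 9.12 and 9.01 on their sh4 arrays. CDH1, the epithelial junction protein E-cadherin, was at 11.31 in PC3-Epi, between 3.07 and 4.00 in the EMT lines, at 5.61 and 5.89 with Scr and at 9.63 and 9.75 with sh4. Of 10 macrophage markers measured, 1 (LAPTM5) rose above the bacterial controls on any untransduced array. The mean of these 10 markers was 3.57 in PC3-Epi and 3.62 to 3.71 in the EMT lines.

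Probe sets for B. subtilis genes, which human RNA does not match, gave the background, and a gene was called detected where it lay above the highest of 27 such probe sets on any array of its set (4.56 untransduced, 6.00 transduced). On all 4 untransduced arrays 15 of the 28 HOX genes (53.6%, beside 58.5% of all 19775 genes) lay above this background: 8 of 10 in cluster B, 6 of 9 in cluster C, HOXA2 and none of the 8 in cluster D. On all 4 transduced arrays it was 16 of 28 (57.1%, beside 64.6%), with 8 in cluster B, 7 in cluster C, 1 in cluster D (HOXD4) and not HOXA2. In both sets together, 14 of 28 were above background on every array, namely HOXB2, HOXB3, HOXB4, HOXB5, HOXB6, HOXB7, HOXB9, HOXB13, HOXC4, HOXC5, HOXC6, HOXC8, HOXC10 and HOXC13.

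**Figure D1:**
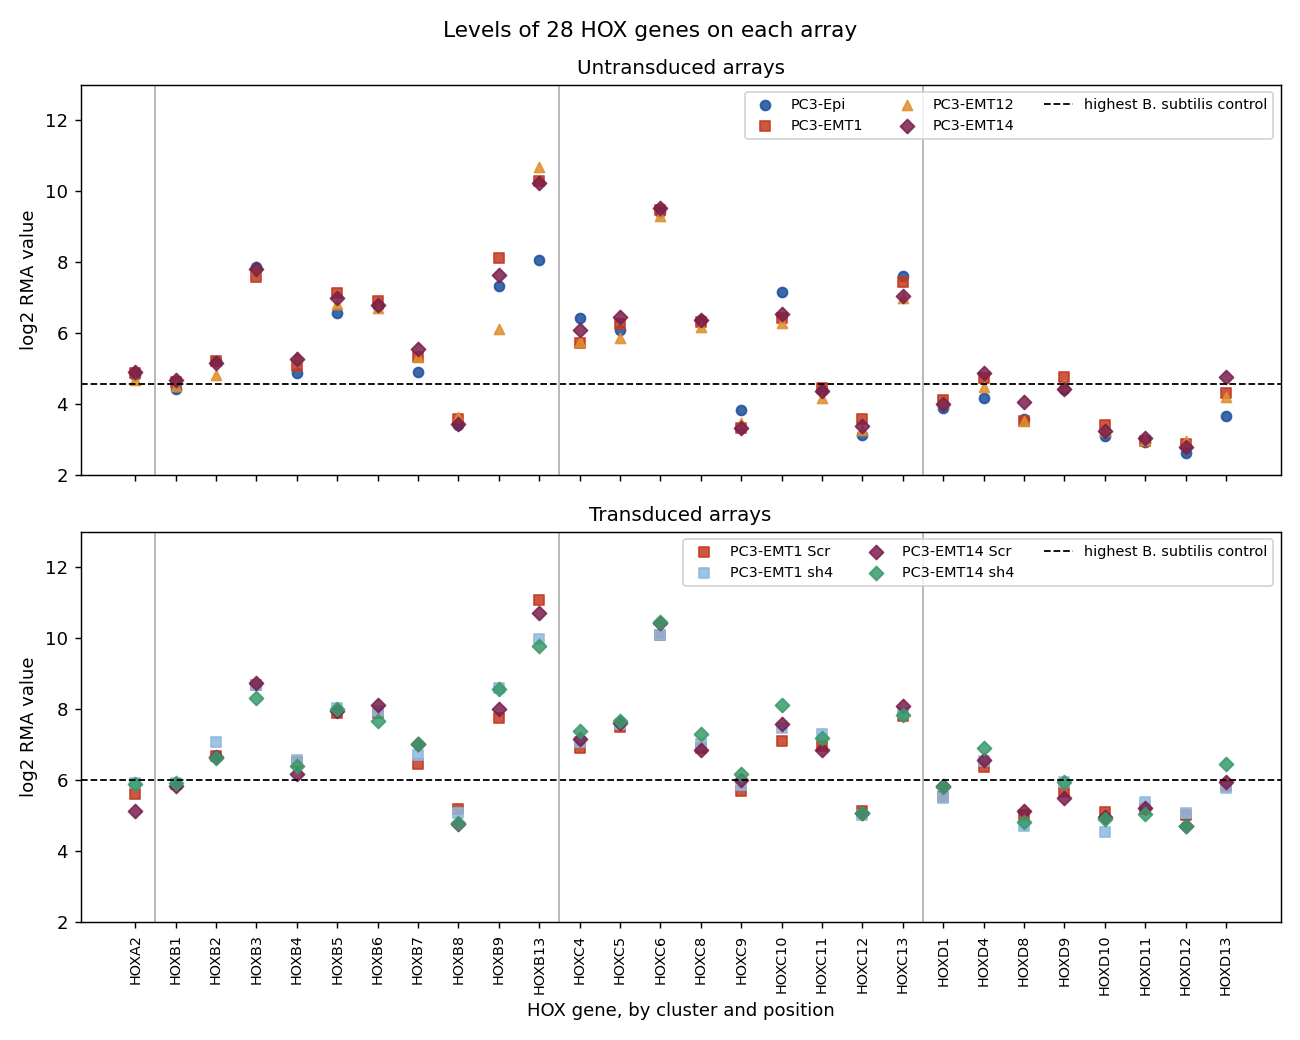
Level of each of the 28 HOX genes (log2 RMA value, y axis) on the 4 untransduced arrays (top) and the 4 transduced arrays (bottom), with 1 point per array, genes ordered by cluster and position, grey lines between clusters and a dashed line at the highest B. subtilis control. HOXB13 is the gene whose PC3-Epi point (8.07) lies farthest from its EMT points (10.23 to 10.67), and most cluster D points lie below the dashed line.

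By position along the clusters, 3 of 5 anterior genes (numbers 1 to 3), 8 of 11 central genes (4 to 8) and 4 of 12 posterior genes (9 to 13) were above background on all untransduced arrays. Over all genes the share was 58.5%. For the posterior genes it was 2 of 2 in cluster B, 2 of 5 in cluster C and 0 of 5 in cluster D. No posterior gene of cluster A was analysed. None of the 8 analysed genes of cluster D was above background on all untransduced arrays. HOXD13, which patterns digits and genitalia, was at 3.65 in PC3-Epi and at 4.30, 4.19 and 4.76 in the EMT lines, so that only PC3-EMT14 exceeded the background of 4.56. HOXD4 was at 4.16 in PC3-Epi and at 4.72, 4.48 and 4.87 in the EMT lines, above background in PC3-EMT1 and PC3-EMT14. HOXD9, a posterior gene of limb and trunk patterning, was at 4.42, 4.75, 4.54 and 4.43, above background in PC3-EMT1 alone. The differences of these genes were not tested, because no array reached the filter of log2 5.

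HOXA2, which patterns the hindbrain and the second pharyngeal arch, was at 4.81 in PC3-Epi and at 4.88, 4.69 and 4.90 in the EMT lines, just above background, and the PC3-Epi value lay among those of the EMT lines. It was the highest of the 14 HOX genes left out by the filter (highest array 4.90), and HOXB2 was the lowest of the 14 let in (highest array 5.22). The others left out were HOXB1, HOXB8, HOXC9, HOXC11, HOXC12 and all 8 of cluster D. HOXC11 was below background on all untransduced arrays (4.16 to 4.46) and above it on all transduced arrays (6.84 to 7.31), a pair of values that cannot be set against each other because the sets differ in scale.

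The EMT lines were first compared with PC3-Epi to ask which HOX transcripts differed after the epithelial-to-mesenchymal transition. HOXB13 was higher and HOXC10 was lower in all 3 EMT lines, and the other 12 of 14 tested HOX genes did not pass limma at an adjusted p under 0.05. Among all 11921 genes tested, 29.3% passed, 13.9% as higher and 15.4% as lower. The median difference was -0.0035 over the 14 HOX genes and 0.070 over all genes tested, and 4 of the 14 had an unadjusted p under 0.05 (HOXB13, HOXC10, HOXB7 and HOXC4), which is 28.6% beside 44.7% of all genes tested. RNA from whole cultures does not tell fewer expressing cells from less RNA per cell.

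HOXB13 was at 8.07 in PC3-Epi and at 10.30, 10.67 and 10.23 in the EMT lines. Every EMT line lay above PC3-Epi, by 2.23, 2.60 and 2.15. The rise was 2.33 ± 0.21 on the log2 scale (standard error of the limma fit, 3 lines against 1 array, 5.01-fold, adjusted p = 0.00194), which placed HOXB13 as number 80 from the top of the 11921 genes by size of rise. The second HOXB13 probe set was at 7.57 in PC3-Epi and at 9.52, 9.99 and 9.47 in the EMT lines, with the same order of the lines. HOXB13 was also the only HOX gene to differ 2-fold in every EMT line, a rule that 7.85% of all genes met, 2.95% as higher and 4.9% as lower.

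HOXC10, a posterior gene that takes part in hindlimb motor neuron identity, was at 7.17 in PC3-Epi and at 6.41, 6.28 and 6.54 in the EMT lines. All EMT lines lay below PC3-Epi. HOXC10 fell by 0.76 ± 0.16 (1.69-fold lower, adjusted p = 0.0219 by limma), and no line reached a 2-fold difference. It has 1 probe set. Leaving out any EMT line kept both the rise of HOXB13 (2.19 to 2.41) and the fall of HOXC10 (-0.82 to -0.69) past the threshold.

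**Figure D2:**
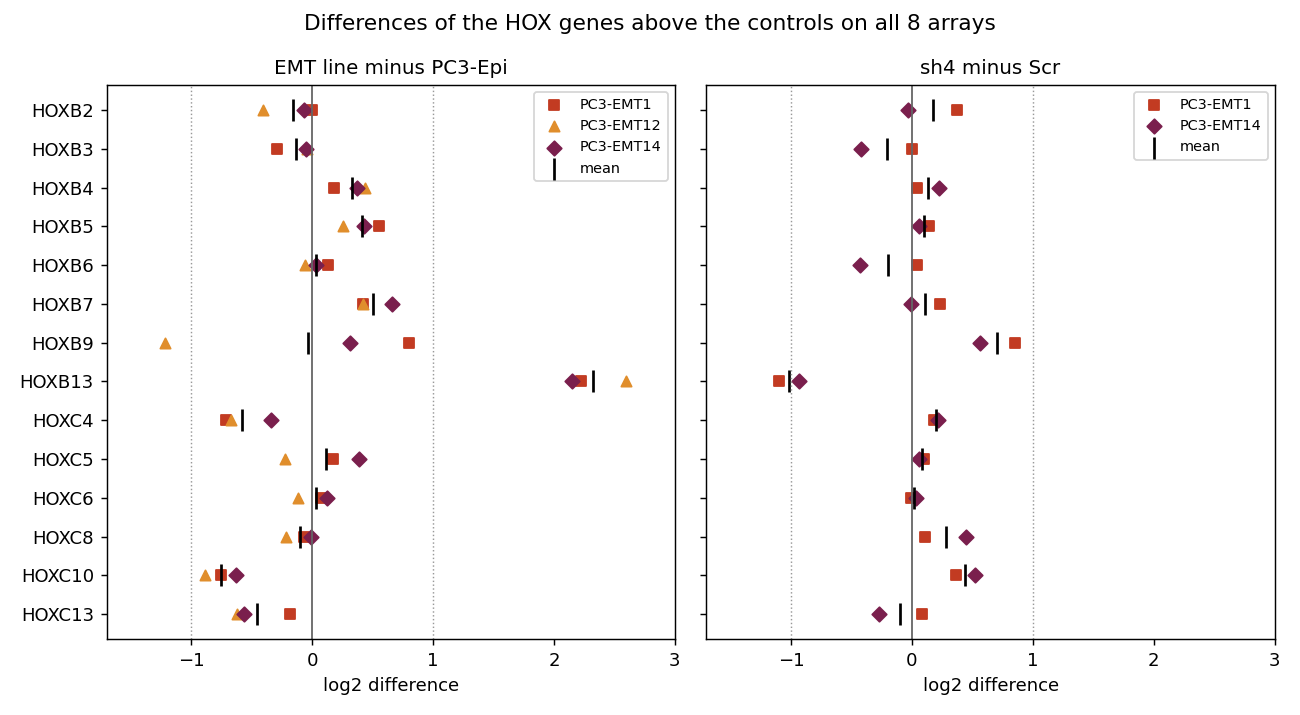
Log2 difference (x axis) of the 14 HOX genes above the controls on all 8 arrays, for each EMT line minus PC3-Epi (left) and for sh4 minus Scr in each line (right); coloured points are lines, black bars are their means and dotted lines mark 2-fold. HOXB13 stands at 2.15 to 2.60 on the left and at -1.10 and -0.94 on the right, and HOXB9 has points on both sides of 0 on the left.

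At the posterior end of the same cluster, HOXC13, known from hair follicle differentiation, was at 7.62 in PC3-Epi and at 7.43, 7.00 and 7.05 in the EMT lines. All 3 lines were below PC3-Epi, PC3-EMT1 least, and the difference was -0.46 ± 0.21 (adjusted p = 0.146 by limma). Without PC3-EMT1 it was -0.59 with an adjusted p of 0.0462. HOXC9, which is below background, was at 3.83 in PC3-Epi and at 3.32, 3.46 and 3.32 in the EMT lines.

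HOXC4, HOXC5 and HOXC6 are central genes of cluster C whose transcripts overlap on the genome, so a probe set of 1 can detect RNA of another. HOXC4 was at 6.42 in PC3-Epi and at 5.71, 5.75 and 6.08 in the EMT lines. The EMT lines were all lower, by a mean of 0.58 (-0.58 ± 0.19, adjusted p = 0.0698 by limma, not past the threshold). HOXC5 was at 6.08 in PC3-Epi and at 6.25, 5.85 and 6.46, with PC3-Epi inside the range of the EMT lines. HOXC6, a gene of mammary and prostate tissue, was at 9.41 in PC3-Epi and at 9.48, 9.29 and 9.53, a spread of 0.23 over the 4 arrays. In the RefSeq gene table HOXC4, HOXC5 and HOXC6 have the same annotated start, and their probe sets differed between EMT and PC3-Epi by -0.58, 0.11 and 0.028. The shared stretch of 250 bases before it (chr12:54016638-54016887, + strand, GRCh38.p14) is shown for that reason, as the promoter table gives it for HOXC4 and HOXC5.

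The capitals below mark a match to CAATAAA on the opposite strand, a core that HOX proteins of group 13 favour.
HOXC4 and HOXC5: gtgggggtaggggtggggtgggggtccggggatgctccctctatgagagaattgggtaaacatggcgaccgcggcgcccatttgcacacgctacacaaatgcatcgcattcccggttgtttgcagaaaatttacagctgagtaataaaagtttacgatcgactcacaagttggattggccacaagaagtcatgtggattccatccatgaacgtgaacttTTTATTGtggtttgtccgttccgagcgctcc

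The match begins 31 bases before the start. CAATAAA was searched on both strands of the 250 bases before each start, and 3.67% of 35116 RefSeq promoters held it. CACCTG, the E-box core bound by ZEB1, was not among the letters of this window on either strand and was present in 17.5% of the promoters. These matches are descriptions of letters and say nothing about binding in these cells.

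HOXB9, a posterior gene next to HOXB13 in number, set PC3-EMT12 apart from the other EMT lines. It was at 7.32 in PC3-Epi, at 8.12 in PC3-EMT1, at 6.10 in PC3-EMT12 and at 7.63 in PC3-EMT14. PC3-EMT1 and PC3-EMT14 lay above PC3-Epi and PC3-EMT12 lay below it, so the EMT group overlapped PC3-Epi. The mean difference was -0.035 ± 0.72 (adjusted p = 0.975 by limma). Without PC3-EMT12 it was 0.56, which did not pass the threshold either.

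In HOXB9, PC3-EMT12 minus the mean of the other EMT lines was -1.78. The second HOXB9 probe set was at 6.07 in PC3-Epi and at 6.48, 5.39 and 5.95 in the EMT lines, again lowest in PC3-EMT12. The SD of HOXB9 over the 3 EMT lines was 1.05, against a median SD of 0.13 over all genes tested, and 99.8% of genes had a lower SD. Of the other 13 tested HOX genes, HOXC5 had the next largest SD (0.31) and HOXB6 the smallest (0.095).

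**Figure D3:**
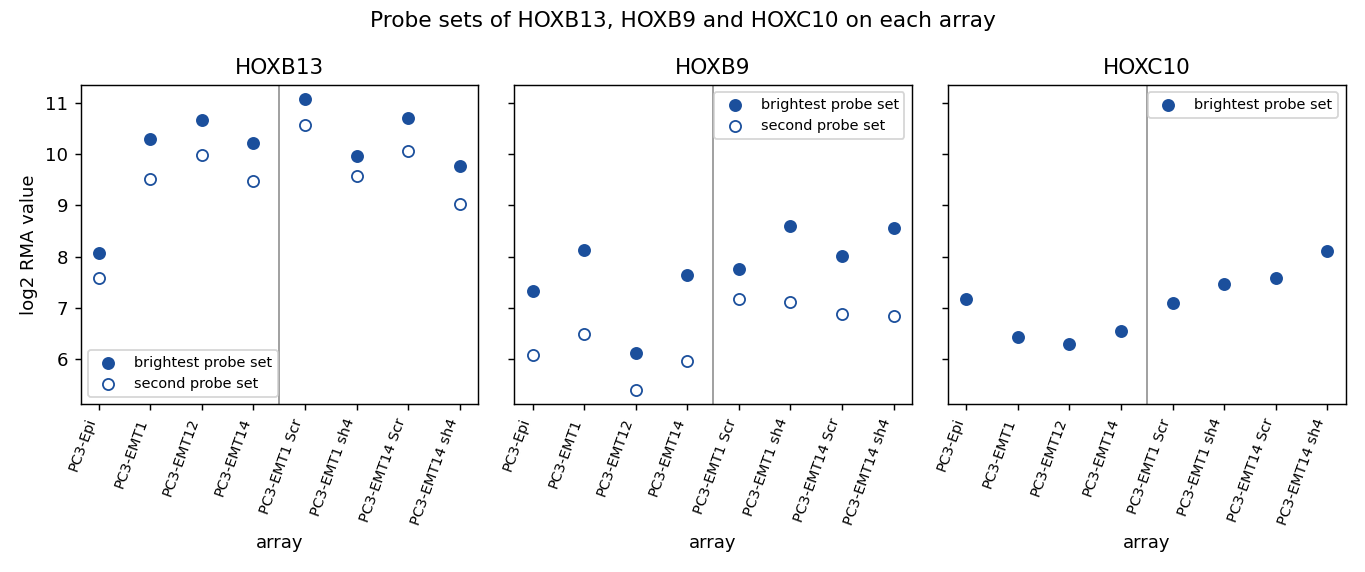
Log2 RMA values (y axis) of HOXB13, HOXB9 and HOXC10 on each array (x axis), with filled points for the probe set used and open points for the second probe set; a grey line parts the untransduced from the transduced arrays, whose scales differ. Both HOXB13 probe sets are lower in PC3-Epi than in the EMT lines and lower with sh4 than with Scr, and both HOXB9 probe sets are lowest in PC3-EMT12 among the untransduced arrays.

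The remaining cluster B genes differed little from PC3-Epi. HOXB7 was at 4.90 in PC3-Epi and at 5.32, 5.32 and 5.56 in the EMT lines, all above it (0.50 ± 0.16, adjusted p = 0.0671 by limma). HOXB5 was at 6.56 in PC3-Epi and at 7.12, 6.82 and 6.99 in the EMT lines, again all above (0.41 ± 0.17, adjusted p = 0.113). HOXB4, which expands blood stem cells, was at 4.89 and at 5.07, 5.33 and 5.26, a difference of 0.33. None of these 3 passed the threshold.

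HOXB3 was at 7.86 in PC3-Epi and at 7.57, 7.82 and 7.81 in the EMT lines (-0.13), and its second probe set differed by 0.20. HOXB2, HOXB6 and HOXC8 differed by -0.16, 0.034 and -0.096. Over the clusters, the median difference was 0.18 for the 8 tested genes of cluster B and -0.28 for the 6 of cluster C, beside 0.070 for all genes. In cluster B, 4 genes were higher than PC3-Epi in all 3 lines and 2 were lower, and in cluster C none was higher and 4 were lower in all 3 lines. Of all genes tested, 46% were higher and 36.7% lower in all 3 lines. All 3 differences of a gene share the PC3-Epi array, so they are not independent.

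The genes that lie beside cluster B on chromosome 17 were read with it, in the order of the gene table. PRAC1, a small nuclear protein of prostate and distal colon whose gene lies between HOXB9 and HOXB13, was at 10.33 in PC3-Epi and at 11.01, 11.15 and 11.07 in the EMT lines. Each EMT line was above PC3-Epi, and the rise was 0.75 ± 0.14 (adjusted p = 0.0166 by limma). Without PC3-EMT14 the difference was 0.75 with an adjusted p of 0.0603. TTLL6, on the far side of HOXB13, was below background in all 4 lines.

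On the other end of the cluster, SKAP1, an adaptor of T cell receptor signalling, was at 3.05 in PC3-Epi, below background, and at 5.51, 5.65 and 5.52 in the EMT lines. Because PC3-Epi was under background, only a bound can be given. SKAP1 was at least 1.99-fold higher in the EMT lines, as their mean over the lowest value above background on the PC3-Epi array (adjusted p = 0.000541 by limma on the measured values), and it passed the filter only through the EMT lines. SNX11, a sorting nexin, rose by 0.59 ± 0.15 (adjusted p = 0.0332), a call lost without PC3-EMT1 (adjusted p = 0.0575) or PC3-EMT14 (0.107), and CBX1, a heterochromatin protein, differed by -0.31, 0.077 and -0.31. HOXB1 to HOXB8 lie between SKAP1 and HOXB9. The differences of HOXB2 to HOXB7, which were above background, ran from -0.40 to 0.66 in single lines.

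**Figure D4:**
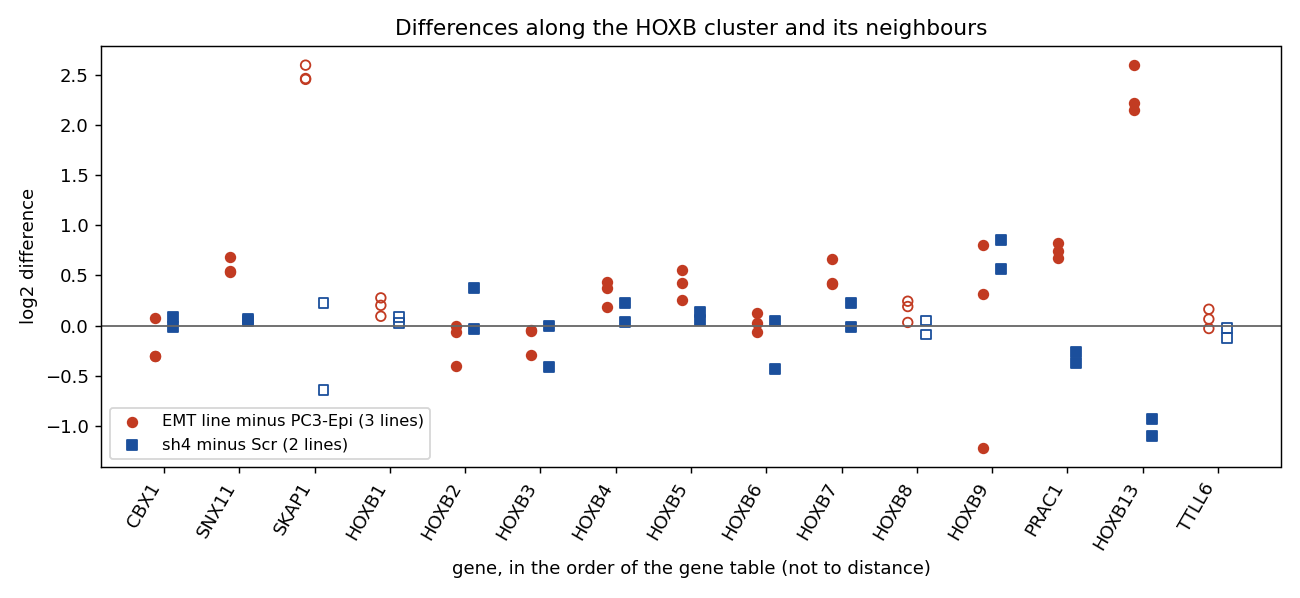
Log2 difference (y axis) of the 10 cluster B genes and 5 genes beside them, in gene order and not to distance; red points are the 3 EMT lines minus PC3-Epi and blue squares are sh4 minus Scr in 2 lines, open where the gene was not above background on all 4 arrays of the set. HOXB13 has red points from 2.15 to 2.60, and the HOXB2 to HOXB7 red points lie from -0.40 to 0.66. SKAP1 is open because it was under background in PC3-Epi (red points) and in PC3-EMT14 with Scr (blue squares).

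The 250 bases before the PRAC1 start (chr17:48722519-48722768, - strand, GRCh38.p14) are given because PRAC1 was the only neighbour of HOXB13 to pass the test. They held neither CAATAAA nor CACCTG on either strand.
PRAC1: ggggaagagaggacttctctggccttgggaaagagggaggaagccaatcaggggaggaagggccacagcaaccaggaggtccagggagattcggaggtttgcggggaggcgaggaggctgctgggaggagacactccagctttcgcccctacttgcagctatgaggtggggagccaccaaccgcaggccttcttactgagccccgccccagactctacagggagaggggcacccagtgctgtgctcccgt

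Their share of G and C was 63.2%, against 50.8% in the shared HOXC4 and HOXC5 stretch. Of the 16 tested genes beside the 4 clusters, 4 were higher, 1 was lower and 11 did not pass, beside 13.9% higher and 15.4% lower over all genes. Their median was -0.10 against 0.070 for all genes. Beside cluster C, ATP5MC2, a subunit of the mitochondrial ATP synthase, rose by 0.81 ± 0.15 (adjusted p = 0.016), and with its probe sets averaged the difference was 0.47 (adjusted p = 0.0613). Beside cluster D, the stress-responsive factor ATF2 fell by 0.99 ± 0.24 (adjusted p = 0.0306 by limma). Its dimmer probe sets, under background in PC3-Epi, differed the other way, by 0.15 and 0.16.

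Of 4 tested non-coding RNAs of the clusters, HOXD-AS2 alone passed, beside 29.3% of all genes tested. It was at 7.14 in PC3-Epi and at 7.78, 8.02 and 8.03 in the EMT lines, all above PC3-Epi, and rose by 0.80 ± 0.17 (adjusted p = 0.0203 by limma, 0.0653 without PC3-EMT14). The 8 HOXD genes analysed were all under the filter, and HOXD3 was not analysed. HOTAIR, a cluster C RNA known to act with Polycomb proteins, was at 4.82 in PC3-Epi and at 3.54, 2.91 and 4.06 in the EMT lines. PC3-Epi alone was above background, and the gene was not tested. HOTTIP, a cluster A RNA, differed by -0.43 ± 0.14 (adjusted p = 0.0664). The median of the 4 was 0.010.

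HOX proteins bind DNA together with TALE homeodomain proteins of the PBX, MEIS and PKNOX families. Of 7 tested, MEIS2 alone passed, beside 29.3% of all genes tested. It was at 8.31 in PC3-Epi and at 7.38, 7.50 and 7.24 in the EMT lines, which all lay below, and it fell by 0.93 ± 0.16 (adjusted p = 0.0126 by limma). MEIS1, a known partner of HOX proteins, differed by -0.33 (adjusted p = 0.163). The median of the 7 was -0.0088.

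Of 17 Polycomb genes, 4 were higher, 4 lower and 9 did not pass, beside 13.9% higher and 15.4% lower over all genes, with a median of 0.099. EED, a core subunit of the H3K27 methyltransferase complex, was at 10.48 in PC3-Epi and at 8.94, 8.85 and 8.72 in the EMT lines, without overlap, and fell by 1.64 ± 0.16 (adjusted p = 0.00229). CBX2, a chromodomain subunit, was at 9.02 in PC3-Epi and at 7.58, 6.81 and 7.78 in the EMT lines, and fell by 1.62 ± 0.37 (adjusted p = 0.026). EZH2, the catalytic subunit, fell by 0.57 (adjusted p = 0.0402), and JARID2, an accessory subunit, fell by 0.63 (adjusted p = 0.0236). With its probe sets averaged, JARID2 stood at -0.25 (adjusted p = 0.209).

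In the opposite direction, PHC1 rose by 0.91, CBX7 by 0.80, PCGF2 by 0.78 and RING1 by 0.67, with adjusted p from 0.00845 to 0.0319. These 4 belong to the Polycomb complex that ubiquitinates histone H2A, as does CBX2, which fell. The calls of EED, CBX2 and PHC1 held without each EMT line in turn. Those of EZH2, JARID2, PCGF2, RING1 and CBX7 were lost without PC3-EMT14 (adjusted p from 0.0675 to 0.126), and that of EZH2 also without PC3-EMT1 (0.0675).

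Of 10 Trithorax and H3K27 demethylase genes, only KDM6A passed, beside 29.3% of all genes tested. KDM6A, a demethylase of H3K27, was at 6.97 in PC3-Epi and at 6.50, 6.45 and 6.25 in the EMT lines. It fell by 0.57 ± 0.16 (adjusted p = 0.0453), a call lost without any 1 of the EMT lines (adjusted p from 0.0501 to 0.163), and the median of the 10 was -0.11. Retinoic acid and CDX factors switch on anterior and central HOX genes in embryos. Of 9 tested regulators of these kinds, 1 rose and 2 fell, with a median of -0.19, beside 13.9% higher and 15.4% lower over all genes. RXRB rose by 0.67 (adjusted p = 0.0252 by limma, and 0.0715 without PC3-EMT14). CYP26B1, which degrades retinoic acid, fell by 1.58 ± 0.39 (adjusted p = 0.0328), and ALDH1A3, which makes it, fell by 0.56 ± 0.14 (adjusted p = 0.0307). Both falls were lost when all probe sets of the gene were averaged (adjusted p = 0.0740 and 0.907). That of CYP26B1 was also lost without PC3-EMT12 (adjusted p = 0.0645), and that of ALDH1A3 without PC3-EMT1 (0.0502) or PC3-EMT14 (0.130).

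The sh4 arrays were then compared with the Scr arrays to ask whether HOX transcripts differed after silencing of ZEB1. None of the 28 HOX genes passed limma on the 4 transduced arrays, and the share of all 16661 genes that passed was 0%. The filter of log2 5 lies under the background of these arrays (6.00), so genes under background were tested too. Of the 28 HOX genes, 10 were under background on all 4 transduced arrays. At an unadjusted p under 0.05 there were 7 HOX genes (HOXB13, HOXB9, HOXC10, HOXA2, HOXC11, HOXD8 and HOXD9), which is 25%, beside 15% of all genes (2499). HOXA2, HOXD8 and HOXD9 were under background on all 4 arrays. A fit with 6 arrays, which adds the untransduced PC3-EMT1 and PC3-EMT14 arrays, called 1 HOX gene, HOXB13, and 1.18% of all genes. That fit has a term for the set of arrays, but its spread mixes the separate scales, which limits its p-values. The median HOX difference was 0.089, beside 0.022 over all genes.

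HOXB13 was at 11.08 with Scr and 9.98 with sh4 in PC3-EMT1, and at 10.71 with Scr and 9.77 with sh4 in PC3-EMT14. Both sh4 arrays lay below both Scr arrays. The difference was -1.02 ± 0.11 (standard error of the limma fit, 2 lines, 2.03-fold lower, adjusted p = 0.215, and 0.0218 in the fit with 6 arrays). By size it was number 46 from the bottom of 16661 genes. The second probe set was at 10.59 and 9.58 in PC3-EMT1 and at 10.08 and 9.03 in PC3-EMT14.

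A 2-fold difference in both lines was met by 0.408% of all genes and by no HOX gene, since HOXB13 in PC3-EMT14 stood at -0.94. Its second probe set met the rule in both lines, with -1.04 in PC3-EMT14. PRAC1, beside HOXB13, was at 12.17 and 11.91 in PC3-EMT1 and at 11.76 and 11.38 in PC3-EMT14 (Scr, then sh4), a difference of -0.32 (adjusted p = 0.32). SKAP1 was at 6.86 and 6.22 in PC3-EMT1 and at 5.80 (under background) and 6.03 in PC3-EMT14.

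HOXB9 was at 7.76 with Scr and 8.61 with sh4 in PC3-EMT1, and at 8.00 and 8.56 in PC3-EMT14. Both sh4 arrays lay above both Scr arrays, and the difference was 0.70 ± 0.13 (adjusted p = 0.261 by limma). The second HOXB9 probe set differed by -0.065 and -0.046, so the probe sets disagreed here. HOXC10 was at 7.10 with Scr and 7.46 with sh4 in PC3-EMT1, and at 7.58 and 8.11 in PC3-EMT14. It was higher with sh4 within each line, but the Scr array of PC3-EMT14 was above the sh4 array of PC3-EMT1 (0.44 ± 0.11, adjusted p = 0.283).

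HOXC11 was at 6.95 and 7.31 in PC3-EMT1 and at 6.84 and 7.19 in PC3-EMT14 (Scr, then sh4), without overlap, a difference of 0.35 (adjusted p = 0.304). HOXA2 stood at 5.61 and 5.91 in PC3-EMT1 and at 5.12 and 5.88 in PC3-EMT14, under the background of 6.00 throughout. HOXC6 differed by -0.0059 in PC3-EMT1 and 0.032 in PC3-EMT14, HOXB3 by -0.0028 and -0.42, HOXC13 by 0.079 and -0.27 and HOXD4 by 0.17 and 0.34. HOXD13 was above background on the sh4 array of PC3-EMT14 alone.

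EMT against PC3-Epi and sh4 against Scr share no array, although they share lines. Of the 14 HOX genes tested in both, 7 (50%) had opposite signs in the comparisons, beside 53.4% of all 11907 genes tested in both and 64.5% of the 3484 of those that passed limma in EMT against PC3-Epi. The members called in the first comparison were among the 7 by sign. HOXB13 had 2.33 and -1.02, and HOXC10 had -0.76 and 0.44.

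No member of the cofactor, Polycomb, Trithorax, retinoic acid, non-coding RNA or neighbour lists passed limma in sh4 against Scr, in which no gene passed. MEIS1 differed by -0.45 and MEIS3 by 0.34 (adjusted p = 0.28 and 0.309), each nearly equal in both lines. CBX2 differed by 0.54, WDR5 by 0.61, CRABP2 by 0.50 and HOTTIP by -0.41. The list medians were -0.028 for the cofactors, 0.064 for Polycomb, 0.035 for Trithorax, 0.051 for retinoic acid, 0.041 for the non-coding RNAs and -0.025 for the neighbours, against 0.022 for all genes.

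Finally PC3-EMT14 was compared with PC3-EMT1 within each condition (untransduced, Scr and sh4), to see whether HOX levels differed between lines of the same phenotype. Each side is a single line, so a p-value here reflects the spread of the difference over the conditions and not the spread among lines. None of the 28 HOX genes passed limma, against 1.82% of 16662 genes (1.52% as higher and 0.3% as lower in PC3-EMT14), and 8 HOX genes (28.6%, beside 16.3% of all genes) had an unadjusted p under 0.05. These were HOXC10, HOXD13, HOXB7, HOXC4, HOXC6 and HOXD4 with positive and HOXB8 and HOXD12 with negative differences. HOXB8 and HOXD12 were under background on every array, and HOXD13 was above it on 2 of the 6. A 2-fold difference in all 3 pairs was met by 0.198% of genes (0.168% as higher and 0.03% as lower) and by no HOX gene. The HOX median was -0.023, beside -0.0092 for all genes.

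HOXC10 was higher in PC3-EMT14 than in PC3-EMT1 by 0.13 untransduced, 0.49 with Scr and 0.65 with sh4, a mean of 0.42 ± 0.12 (adjusted p = 0.134 by limma). HOXB7 was higher by 0.24, 0.56 and 0.32 (0.38 ± 0.10, adjusted p = 0.123), and HOXC4 by 0.37, 0.27 and 0.30 (0.31 ± 0.092, adjusted p = 0.148). HOXC6 differed by 0.043, 0.35 and 0.39, and HOXB13 by -0.073, -0.37 and -0.20. The sign was the same in all 3 pairs for each of these, and none passed the threshold. HOXB9 differed by -0.48, 0.25 and -0.041, with no common sign, so the line that stood apart in HOXB9 was PC3-EMT12, which was not transduced.

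In the same comparison 2 of 14 retinoic acid genes passed, beside 1.82% of all genes. CRABP2, a carrier of retinoic acid, was higher in PC3-EMT14 by 1.01 untransduced, 1.46 with Scr and 1.31 with sh4 (1.26 ± 0.11, adjusted p = 0.00526 by limma). CYP26B1 was higher by 1.01, 1.14 and 0.65 (0.94 ± 0.12, adjusted p = 0.0179). Its value on the Scr array of PC3-EMT1 was 5.81, under background. The second CYP26B1 probe set differed the other way, by a mean of -0.16. With its probe sets averaged the difference was 0.39 and did not pass (adjusted p = 0.168 by limma). Without the untransduced pair neither CRABP2 nor CYP26B1 passed (adjusted p = 0.173 and 0.234), and no gene did. HOTAIR was under background on all 6 arrays.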

How the data were processed

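The authors deposited log2 values made from 1 Affymetrix array per sample with RMA in the affy package, per the submitters' processing notes, in which no version is given. The deposited log2 values of 54675 probe sets were used unchanged. RMA summarises probes and scales arrays together, and the 2 sets of arrays were scaled apart, which bars comparison between them. Of the probe sets, 41091 named 1 gene symbol, 1801 several and 11721 none. A gene is given by its brightest 1-symbol probe set over the 8 arrays.

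Differences were fitted in R 4.3.3 with limma 3.58.1 (lmFit, eBayes, Benjamini-Hochberg over all genes kept, threshold 0.05), on genes with at least 1 array of the comparison at log2 5. EMT against PC3-Epi used 4 arrays (2 residual and 3.87 prior degrees of freedom), with the lone PC3-Epi array assumed to vary like the EMT lines. sh4 against Scr used the 4 transduced arrays with the line as a block (1 and 2.97), because the number that the labels give a replicate is that of its line. PC3-EMT14 against PC3-EMT1 used 6 arrays with the condition as a block (2 and 5.38). Beside each fit stands the count of genes with a 2-fold difference in every line or pair, in the same direction.

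Named with values are HOX genes that passed limma or the 2-fold rule, the 3 highest of each cluster and, of each list, members that passed or otherwise those with the largest difference. Other HOX genes, CBX1, TTLL6, SKAP1 with sh4, HOTTIP and HOTAIR in EMT against PC3-Epi and the named direction counts were chosen after their values were seen. The HOX genes and the lists were chosen with earlier results of these data known. The fits were tested on simulated data. Alternatives were other filters (none, log2 7), averaged or separate probe sets, median centring, quantile and cyclic loess normalization, 32 added on the linear scale, eBayes with trend or robust, limits of 1.5-fold and 3-fold, other blocks and leaving out each line or pair. Promoter sequences are RefSeq, GRCh38.p14. The number of arrays limits the precision.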

Additional observations from a re-analysis of the deposited data

How the results depend on the processing

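Over 938 alternative values of the HOX counts, the named HOX genes and the list genes, 871 were taken as unchanged. For a gene this meant the same direction and side of the threshold. Where a fit gave no p-value, it meant the same direction and a move smaller than the SD of the line differences. For a count it meant a move within 1.5-fold. Other filters, the eBayes options, the fit with no block and the fit with 6 arrays leave a gene's difference as it was. In those alternatives only its p-value could move, so part of the 871 was fixed in advance. The calls of HOXB13 and HOXC10 in EMT against PC3-Epi held under all alternatives, at 2.19 to 2.41 and -0.82 to -0.59 in the fits by gene. With every probe set separate, the second HOXB13 probe set was called at 2.09. Without each EMT line in turn, limma called 2 to 3 HOX genes and the 2-fold rule 1. A limit of 1.5-fold gave 2 HOX genes for EMT and 1 for sh4. For sh4 the 2-fold rule gave 0 to 1 HOX gene without each line in turn, and 1 with every probe set separate, an alternative chosen after seeing the data. For HOXB13 the adjusted p by limma was 0.215 with the replicate block and 0.385 with no replicate block, neither past the threshold. It was 0.0218 where the untransduced arrays of both lines were added and the replicate block kept (6 arrays), where 1 HOX gene was called. The fit with 6 arrays mixes the separate scales of the sets.

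Signs of small, uncalled differences turned. In EMT against PC3-Epi these were HOXB3 with averaged probe sets (0.035), HOXB9 with quantile normalization (0.029) and with 32 added (0.0098), and HOXB6 and HOXC6 with cyclic loess (-0.0091 and -0.035). Without each EMT line in turn HOXB6 ran from -0.015 to 0.080, HOXB9 from -0.45 to 0.56, HOXC5 from -0.024 to 0.28 and HOXC6 from -0.018 to 0.099, and the signs turned without PC3-EMT1 for HOXB6, without PC3-EMT12 for HOXB9 and without PC3-EMT14 for the other two. In sh4 against Scr they were HOXD13 with averaged probe sets (-0.025) and HOXC6 with median centring (-0.011), and without each line in turn HOXC6 ran from -0.0059 to 0.032, HOXC13 from -0.27 to 0.079 and HOXD13 from -0.033 to 0.52, each turned without PC3-EMT14. Between the lines they were HOXB3 with averaged probe sets (0.023), and without each pair in turn HOXB3 ran from -0.15 to 0.15, HOXB9 from -0.26 to 0.10 and HOXC13 from -0.22 to 0.12. The causes were not tested.

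Among list genes, averaging probe sets ended the calls of JARID2, CYP26B1, ALDH1A3 and ATP5MC2, and 3 further settings ended that of KDM6A. Counts over all genes moved too, and they are out of far more genes than the HOX counts. For EMT, 1841 genes passed without PC3-EMT14 against 3496, and 2475, 373 and 546 met the fold rule at 1.5-fold, at 3-fold and with 32 added, against 936. For sh4 up to 196 genes passed (6 arrays) and 51 with median centring, against 0, and 18 to 323 met the fold rule against 68. Between the lines 0, 272 and 161 passed without the untransduced, Scr and sh4 pair, 117 with 32 added and 191 with averaged probe sets, against 304, and 7 to 142 met the fold rule against 33. A single PC3-Epi array and 2 or 3 lines limit all comparisons. Levels under the bacterial controls, which include most cluster D genes, carry little information on differences.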

Other observations

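Prostate markers were set beside HOXB13 as a check of lineage. KLK3, the prostate-specific antigen, was at 6.51 in PC3-Epi and at 6.82, 6.45 and 6.65 in the EMT lines (PC3-EMT1, then PC3-EMT12, then PC3-EMT14), and the groups overlapped. TMPRSS2, a membrane protease of prostate epithelium, was at 6.95 in PC3-Epi and at 5.72, 5.82 and 6.03 in the EMT lines, all lower, and fell by 1.09 ± 0.17 on the log2 scale (adjusted p = 0.00977 by limma). With sh4 it was higher than with Scr by 0.76 in PC3-EMT1 and 0.91 in PC3-EMT14 (adjusted p = 0.236). KLK2, a protease related to KLK3, was at 4.77 in PC3-Epi and at 4.79, 5.05 and 5.23 in the EMT lines, all above PC3-Epi, with a difference of 0.25 that did not pass (adjusted p = 0.370 by limma). Of the prostate markers tested, 1 was lower and the other 2 did not pass, beside 15.4% lower over all genes, and the median was 0.13.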
